A study of Homo sapiens with 14 samples.

Results

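The miR-23/27/24 family is encoded by a pair of clusters, and the 5 mature miRNAs from their 3′ arms (miR-23a-3p, miR-23b-3p, miR-24-3p, miR-27a-3p and miR-27b-3p) were followed here in the small RNA of extracellular vesicles (EVs). They were taken by name and arm from the deposited table of raw counts, where they are 5 of 2632 listed miRNAs and 5 of the 447 with at least 1 count. EVs were precipitated from the medium of epicardial cells made from the human embryonic stem cell line hES-2, a single line. Cells in every group started as cryopreserved pro-epicardial cells, grew for 8 days, received medium passed through a 100 kDa filter from day 4, and gave medium on days 6 and 8 after 48 h each. The SB group (4 libraries) was kept for all 8 days in 6 µM SB-431542, which blocks the TGF-β type I receptor, and is labelled as mature epicardial cells. The NT group (3 libraries) had no additive and is labelled as pro-epicardial. The TGFb group (4 libraries) had 5 ng/ml TGF-β1 for 4 days and no additive for the other 4 days, and the FGF group (3 libraries) had 10 ng/ml basic FGF for 8 days. No group lacked the precipitation step, so the background of the method itself was not measured in these libraries.

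A miRNA is cut from a hairpin precursor and pairs with messenger RNAs mainly through its seed, bases 2 to 8 from the 5′ end. Clustered hairpins can be made from 1 primary transcript, so cluster mates may be produced together and then processed, exported and lost at different rates. The clusters are known from endothelial cells, vascular growth, heart and fibroblasts, and miR-27 members are known for targets in lipid and vascular biology. The epicardium is the outer cell layer of the heart, and TGF-β and FGF both act on its transition into mesenchymal cells. In EVs, fewer vesicles and less of a miRNA per vesicle cannot be told apart.

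The 5 mature sequences show what a count can and cannot separate, and the seed is in capitals (5′ to 3′, RefSeq, GRCh38.p14; all 5 were matched).
miR-23a-3p: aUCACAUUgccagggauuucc
miR-23b-3p: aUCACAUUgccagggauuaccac
miR-27a-3p: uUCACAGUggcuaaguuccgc
miR-27b-3p: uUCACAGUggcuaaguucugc
miR-24-3p: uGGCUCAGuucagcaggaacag
Positions are counted from 1 at the 5′ end. Over their shared 21 bases, miR-23a-3p and miR-23b-3p differ by U19A, and miR-23b-3p has 2 further bases at its 3′ end. The miR-27 pair differs by C19U alone. The members of each pair therefore have the same seed, and the miR-23 and miR-27 seeds share 6 of 7 positions. How reads with an error at position 19 or with trimmed ends were assigned is not given in the sources used here, so the split within a pair is less certain than the pair's sum.

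The b members lie in the cluster of MIR23B, MIR27B and MIR24-1, which spans 881 bases on the plus strand (GRCh38, chr9:95085208-95086088). In the GENCODE annotation MIR23B and MIR27B are in an intron of the protein-coding gene C9orf3, and MIR24-1 overlaps one of its exons and the antisense hairpin MIR3074. The a members lie in the cluster of MIR23A, MIR27A and MIR24-2, which spans 373 bases on the minus strand (chr19:13836287-13836659), in an exon of the non-coding antisense gene AC020916.1. The mature miR-24-3p is identical from MIR24-1 (chr9:95086064-95086085) and MIR24-2 (chr19:13836289-13836310), so its counts cannot be assigned to a cluster. The others each have 1 locus: miR-23a-3p at chr19:13836595-13836615, miR-27a-3p at chr19:13836447-13836467, miR-23b-3p at chr9:95085265-95085287 and miR-27b-3p at chr9:95085505-95085525.

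The 14 libraries held 115 to 14862 miRNA counts each and 47091 together. The 3 libraries with replicate number 2 had totals of 115 (FGF), 179 (SB) and 231 (TGFb) and no count of any of the 5 miRNAs. At 3 counts, a count of 0 in them allows a share of up to 2.61%, 1.68% and 1.30%, so these libraries do not show whether the miRNAs were there. Among markers of other sources, 6 of 8 pluripotent stem cell miRNAs, the red-cell miR-451a and miR-144-3p, and the heart-muscle miR-208a-3p, miR-208b-3p and miR-499a-5p had no count in any library. Over all libraries miR-302a-3p had 2 counts, miR-372-3p 3, miR-486-5p 6, miR-223-3p 3 and the liver and serum miR-122-5p 34. The muscle miR-1-3p had 22 and miR-133a-3p 12, and the endothelial miR-126-5p had 6. The endothelial miR-126-3p was not rare: its 79 counts in 12 libraries were more than those of miR-23a-3p or miR-24-3p, and its part in the members' results was not tested. Messenger RNA markers of epicardium were not measured.

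Together the 5 miRNAs had 404 counts, in 11 of 14 libraries, a mean of 0.908% ± 0.840 of each library (SD, n = 14). miR-27b-3p was the most abundant, with 151 counts, a mean share of 0.372% ± 0.325 and rank 50 among the 447 miRNAs by mean share. miR-23a-3p had 75 counts (0.196% ± 0.278, rank 66), miR-24-3p 76 (0.169% ± 0.194, rank 71) and miR-23b-3p 91 (0.129% ± 0.166, rank 87). miR-27a-3p was the rarest, with 11 counts in 6 libraries (0.0408% ± 0.0651, rank 137) and never more than 3 in a library. The order of miR-23b-3p and the pair miR-23a-3p and miR-24-3p thus depends on the measure: it had more counts in sum, because many lay in the deepest libraries, and a lower mean share.

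miR-27b-3p is the chromosome 9 member of the miR-27 pair. In NT it had 8, 24 and 9 counts in replicates 1, 3 and 4, or 0.0538%, 0.254% and 0.891% of the library. In SB the counts were 1, 0, 25 and 6 in replicates 1 to 4 (0.290%, 0, 0.653% and 0.467%). NT replicate 1, the deepest library, had the lowest share above 0, and the NT replicates alone spanned nearly the whole range of the series. In TGFb the counts were 1, 0, 27 and 23 (0.0705%, 0, 0.361% and 0.830%). In FGF they were 0, 21 and 6 in replicates 2, 3 and 4 (0, 0.648% and 0.691%). By group mean the order was FGF 0.446% ± 0.387 (SD, n = 3), NT 0.400% ± 0.437 (n = 3), SB 0.352% ± 0.278 (n = 4) and TGFb 0.315% ± 0.377 (n = 4), with every step smaller than either group's SD.

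These means weight each library equally and count the shallow libraries at 0. Pooling the counts of a group, which weights deep libraries, gave miR-27b-3p another order: 0.639% in FGF (95% Wilson interval 0.440% to 0.928%), 0.568% in SB (0.402% to 0.800%), 0.429% in TGFb (0.326% to 0.563%) and 0.162% in NT (0.119% to 0.219%). NT thus moved from second to last, and NT replicate 1 alone held 14862 of that group's 25334 counts. The intervals cover counting error within the pool and not the spread between libraries, over which the groups overlapped. For miR-23a-3p the pooled order was FGF 0.402%, TGFb 0.202%, SB 0.124% and NT 0.107%, for miR-23b-3p FGF 0.260%, TGFb 0.244%, NT 0.186% and SB 0.0710%, and for miR-24-3p FGF 0.308%, SB 0.195%, TGFb 0.193% and NT 0.114%.

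miR-27a-3p, its chromosome 19 counterpart, had 0, 0 and 1 counts in NT and 0, 0, 2 and 1 in SB. It had 0, 0, 3 and 2 in TGFb and 0, 0 and 2 in FGF. In NT replicate 1 the 0 allows a share of up to 0.0202%, and the other 4 miRNAs each had a higher share there. Its group means, from 0.0281% ± 0.0350 (TGFb, n = 4) to 0.0768% ± 0.133 (FGF, n = 3), rest on 1 to 5 counts a group and cannot be ordered.

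miR-23a-3p had 15, 9 and 3 counts in NT (0.101%, 0.0951% and 0.297%) and 0, 0, 2 and 5 in SB (0, 0, 0.0523% and 0.389%). In TGFb it had 0, 0, 15 and 9 (0, 0, 0.201% and 0.325%), and in FGF 0, 8 and 9 (0, 0.247% and 1.04%). FGF replicate 4 held the highest share of any single member in the series, from a library of 868 counts, and its 95% Wilson interval ran from 0.546% to 1.96%. The group means were 0.428% ± 0.542 in FGF, 0.164% ± 0.115 in NT, 0.131% ± 0.160 in TGFb and 0.110% ± 0.187 in SB, and each step was within the larger SD.

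miR-23b-3p had 21, 25 and 1 counts in NT (0.141%, 0.264% and 0.0990%) and 0, 0, 3 and 1 in SB (0, 0, 0.0784% and 0.0778%). It was the only one of the 5 whose shares did not overlap between a pair of groups: the highest SB library lay below the lowest NT library. The lowest NT library, replicate 4, held 1 of 1010 counts and the highest SB library, replicate 3, held 3 of 3826, and their 95% Wilson intervals overlapped (0.0175% to 0.559% and 0.0267% to 0.230%). The 0 counts in SB replicates 1 and 2 allow up to 0.870% and 1.68%, above every NT share. In TGFb it had 1, 0, 12 and 16 (0.0705%, 0, 0.160% and 0.578%), and in FGF 0, 11 and 0 (0, 0.339% and 0). The group means were 0.202% ± 0.259 in TGFb, 0.168% ± 0.0858 in NT, 0.113% ± 0.196 in FGF and 0.0390% ± 0.0451 in SB, and each step was within the larger SD.

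miR-24-3p, which either cluster can give, had 14, 13 and 2 counts in NT (0.0942%, 0.137% and 0.198%) and 0, 0, 6 and 5 in SB (0, 0, 0.157% and 0.389%). It had 0, 0, 15 and 8 in TGFb (0, 0, 0.201% and 0.289%) and 0, 7 and 6 in FGF (0, 0.216% and 0.691%). The groups overlapped, with means of 0.302% ± 0.354 in FGF, 0.143% ± 0.0522 in NT, 0.136% ± 0.184 in SB and 0.122% ± 0.146 in TGFb.

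**Figure D1:**
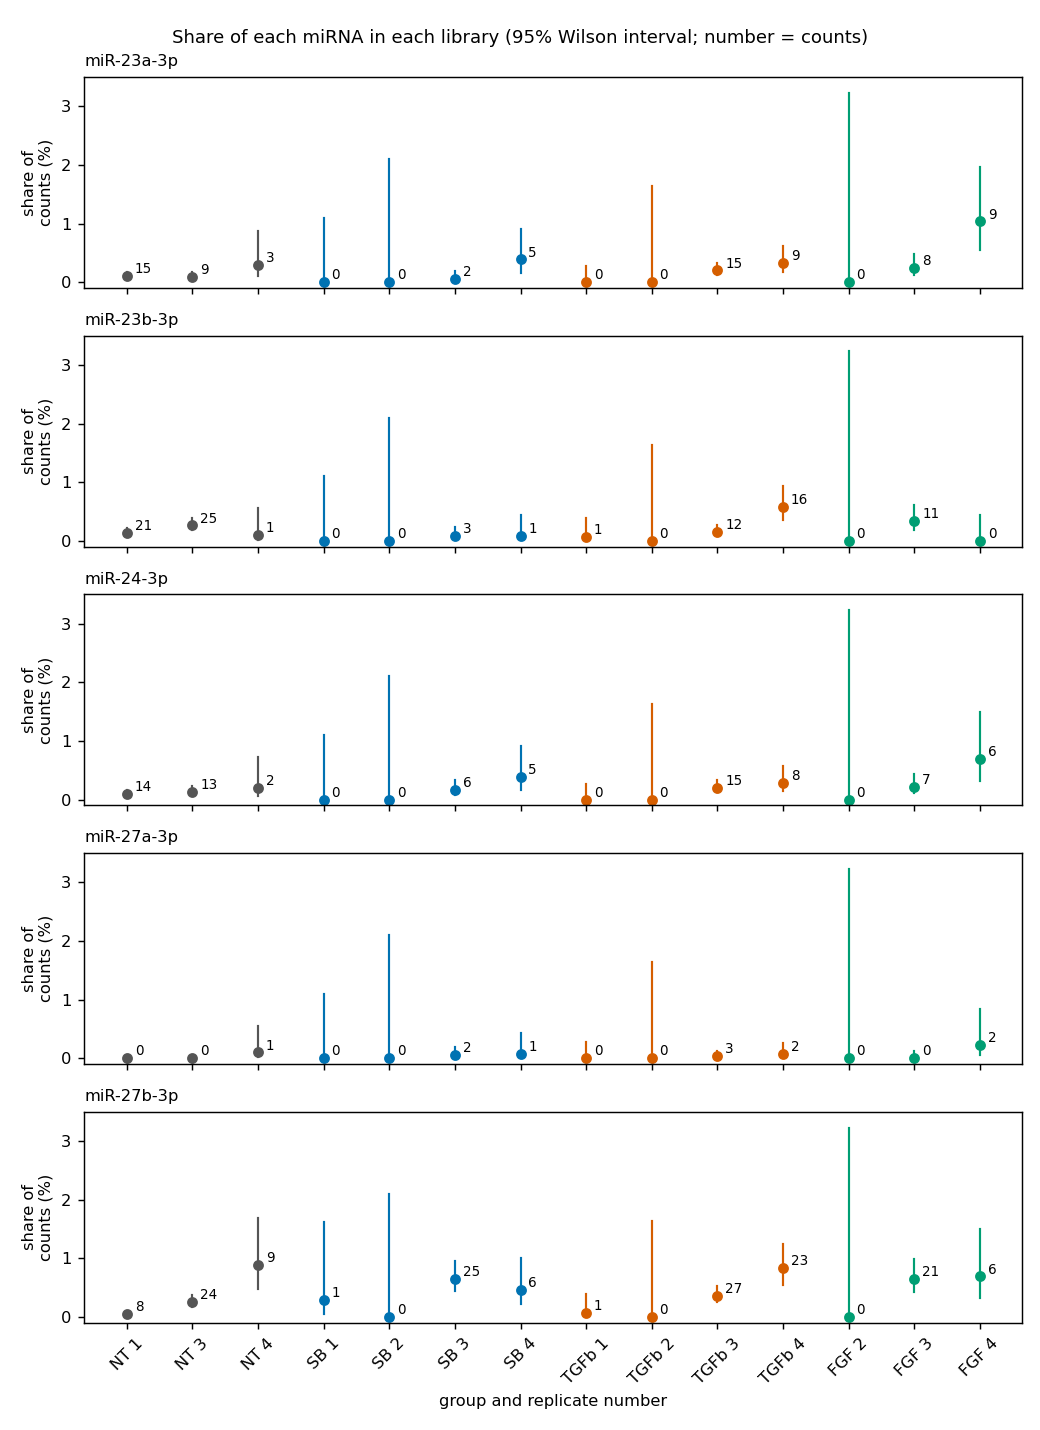
Share of each of the 5 miRNAs (percent of the library's miRNA counts, y axis) in each of the 14 libraries (x axis, group and replicate number), with 95% Wilson intervals as lines and the counts printed beside the points. The intervals of the 3 libraries numbered 2 (115 to 231 counts) reach far above the shares of the deeper libraries, and miR-27a-3p stays at 0 to 3 counts throughout.

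The members were then compared with each other within each library. The test was an exact two-sided sign-flip permutation of the mean difference of shares over 14 libraries, with Benjamini-Hochberg adjustment over the 10 pairs. It treats libraries as independent. Over the filtered miRNAs, libraries with the same replicate number mostly deviated together (15 of 18 pairs), so its p-values may be too small. The largest difference was inside the miR-27 pair. miR-27b-3p exceeded miR-27a-3p in 11 of 11 libraries that had a count of either, by a mean of 0.331 percentage points (the difference a minus b was -0.331, SD 0.287, n = 14; exact permutation p = 0.000977, adjusted 0.00977). It made up 151 of 162 counts of the pair, or 93.2% (95% Wilson interval 88.3% to 96.2%), and between 75% (6 of 8, FGF replicate 4) and 100% in single libraries. By group the pooled fraction was 97.6% in NT, 91.4% in SB, 91.1% in TGFb and 93.1% in FGF, with overlapping intervals.

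The miR-23 pair gave another picture. miR-23b-3p made up 91 of 166 counts, or 54.8% (47.2% to 62.2%), and the difference miR-23a-3p minus miR-23b-3p was 0.0668 percentage points (SD 0.311, n = 14; exact permutation adjusted p = 0.605). miR-23a-3p was higher in 4 libraries and miR-23b-3p in 6. The split was not the same everywhere: miR-23b-3p had 25 of 34 counts in NT replicate 3 (73.5%, 56.9% to 85.4%), 12 of 27 in TGFb replicate 3 (44.4%, 27.6% to 62.7%) and 0 of 9 in FGF replicate 4 (0 to 29.9%). FGF replicate 4 and NT replicate 3 had intervals that did not overlap, and within FGF the other informative library, replicate 3, had 11 of 19 (57.9%, 36.3% to 76.9%). The intervals of these FGF libraries did not overlap either. They cover counting error only, and replicate 4 rests on 9 counts, so whether the FGF libraries share 1 split was not tested. Without FGF replicate 4 the mean difference changed sign, to -0.00786.

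**Figure D2:**
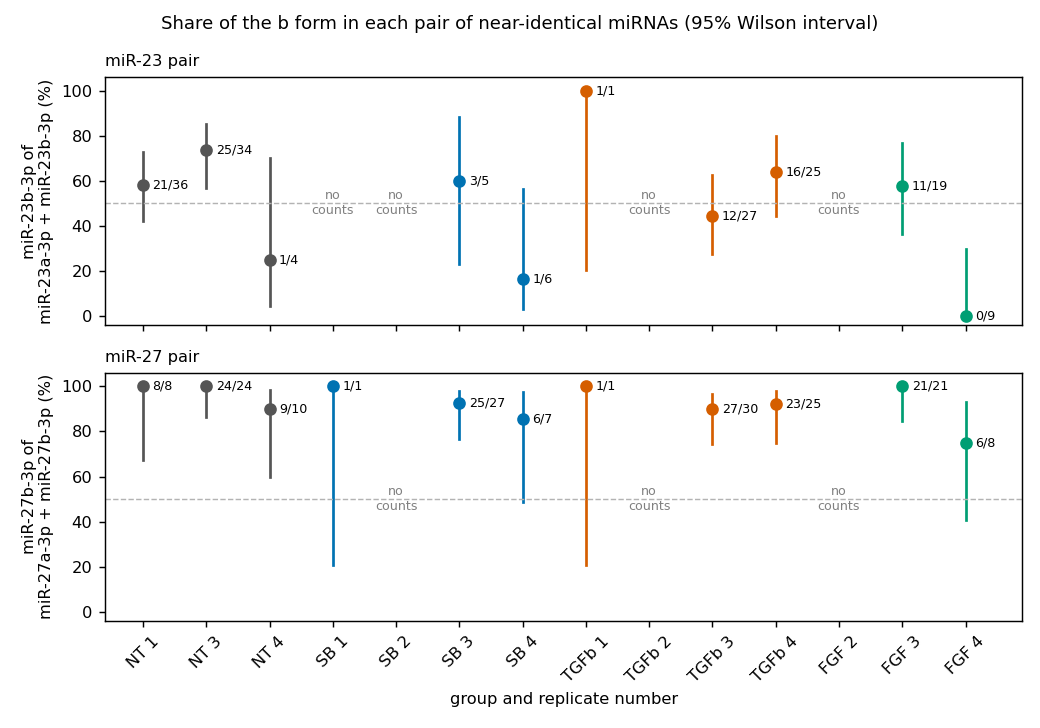
Fraction of the b form in each pair (y axis, percent of the pair's counts) by library (x axis, group and replicate number), with 95% Wilson intervals and the counts beside the points; the dashed line marks equal counts and libraries with no count of a pair are marked. The miR-27 points lie between 75% and 100%, and the miR-23 points range from 0 of 9 in FGF replicate 4 to 1 of 1 in TGFb replicate 1.

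Among cluster mates of chromosome 9, miR-27b-3p was higher than miR-23b-3p in 8 libraries and lower in 2 (miR-23b-3p minus miR-27b-3p -0.243 percentage points, SD 0.284, n = 14; exact permutation adjusted p = 0.0156). The 2 exceptions were NT replicates 1 and 3, the deepest libraries, with 21 against 8 and 25 against 24 counts. miR-27b-3p was also higher than miR-24-3p, in 9 libraries against 1 (0.203 points, SD 0.243; exact permutation adjusted p = 0.0130). On the authors' adjusted values neither of these differences passed the threshold: they were -0.0997 (exact permutation adjusted p = 0.137) and 0.0580 (exact permutation adjusted p = 0.291). miR-23b-3p and miR-24-3p did not differ beyond the spread (-0.0402, SD 0.231; exact permutation adjusted p = 0.605), and each was higher in 5 libraries.

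On chromosome 19 the order inside the cluster was the reverse for miR-27. miR-23a-3p exceeded miR-27a-3p in 8 libraries and was lower in 0 (0.155 points, SD 0.218; exact permutation adjusted p = 0.0156). miR-24-3p exceeded miR-27a-3p in 9 and was lower in 0 (miR-27a-3p minus miR-24-3p -0.129, SD 0.137; exact permutation adjusted p = 0.0130). With 6 and 5 libraries tied in these tests, the unadjusted p of both is the smallest that the other libraries allow. miR-23a-3p and miR-24-3p were close (0.0265, SD 0.102, exact permutation adjusted p = 0.566). Hence the miR-27 form had the larger share of the 2 miR-23 and miR-27 cluster mates on chromosome 9 and the smaller share on chromosome 19.

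Across clusters, miR-27b-3p was higher than miR-23a-3p in 9 libraries and lower in 2, but the difference missed the threshold (miR-23a-3p minus miR-27b-3p -0.176 points, SD 0.272; exact permutation p = 0.0322, adjusted 0.0537). Leaving out FGF replicate 4 or NT replicate 1 moved it past the threshold (exact permutation adjusted p = 0.0130 and 0.0488). miR-23b-3p minus miR-27a-3p was 0.0884 points (SD 0.181; exact permutation adjusted p = 0.134), which also passed without FGF replicate 4 (exact permutation adjusted p = 0.0223). Counts that name 1 locus summed to 242 for the chromosome 9 pair and 86 for the chromosome 19 pair, so the former had 73.8% (68.8% to 78.2%). In libraries with at least 10 such counts this ran from 35.3% (17.3% to 58.7%) in FGF replicate 4 to 87.5% (71.9% to 95%) in SB replicate 3, and FGF replicate 4 was the one such library in which chromosome 19 counts were the majority.

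In the 9 libraries with at least 10 counts of the 5 miRNAs, miR-27b-3p made up 39.0% ± 15.5 of their sum (SD, n = 9), from 13.8% (7.16% to 24.9%) in NT replicate 1 to 65.8% (49.9% to 78.8%) in SB replicate 3. Relative to its mean, the fraction of miR-24-3p varied least, 19.3% ± 5.62, from 12.5% to 27.8%. miR-23a-3p took 20.3% ± 9.76, miR-23b-3p 17.6% ± 13.5 and miR-27a-3p 3.71% ± 3.14. The NT libraries did not resemble each other: miR-23b-3p was 36.2% and 35.2% of the sum in replicates 1 and 3 and 6.25% in replicate 4 (1 of 16 counts), and miR-27b-3p was 13.8%, 33.8% and 56.2%.

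**Figure D3:**
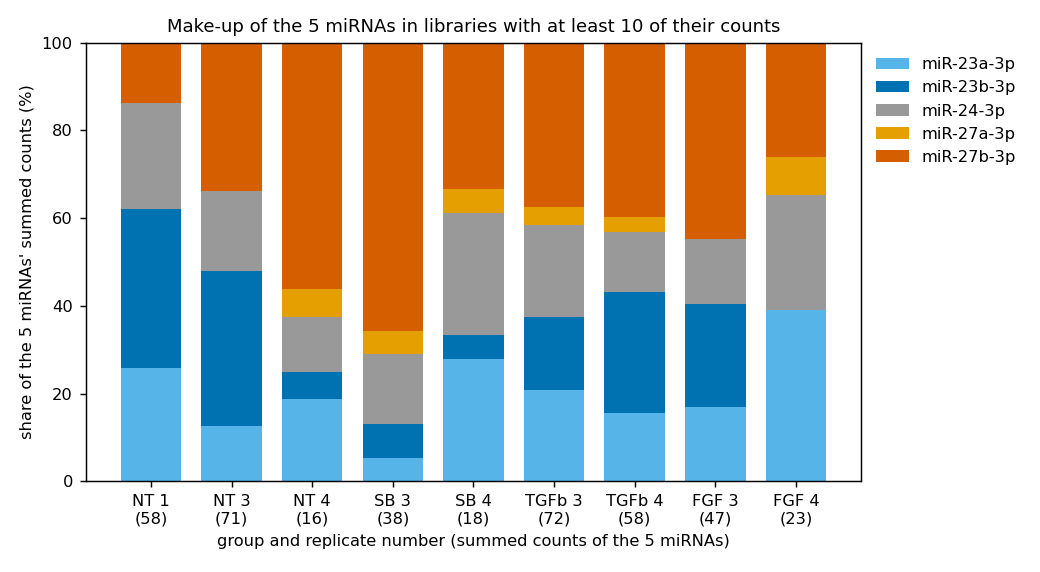
Make-up of the 5 miRNAs (y axis, percent of their summed counts) in the 9 libraries with at least 10 of their counts (x axis, group and replicate number, with the summed counts in parentheses); each colour is 1 miRNA. miR-27b-3p ranges from 13.8% in NT replicate 1 to 65.8% in SB replicate 3, while miR-24-3p stays between 12.5% and 27.8%.

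The opposite arms of the same hairpins were nearly absent. MIR23B gave 3 counts of miR-23b-5p (1 in NT replicate 1 and 2 in NT replicate 3), or 3.19% of its 94 counts from both arms (1.09% to 8.97%). MIR23A and MIR27B gave none beside 75 and 151 counts of the 3′ arm. MIR27A gave 4 counts of miR-27a-5p (3 in NT replicate 1 and 1 in NT replicate 3) against 11 of miR-27a-3p, or 26.7% (10.9% to 52.0%). These 4 fell in the 2 deepest libraries, where miR-27a-3p had none, so in those libraries every count from MIR27A was from the 5′ arm. The arm has a different seed, again in capitals.
miR-27a-5p: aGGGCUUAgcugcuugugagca
miR-24-1-5p, miR-24-2-5p, miR-3074-5p and miR-3074-3p had no count. Of the other miRNAs with these seeds, miR-23c, from an intron of MAP7D2 on the X chromosome, had 1 count (FGF replicate 3) and miR-9985 had none.

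The treatments were compared with the quasi-likelihood test of edgeR on raw counts, with Benjamini-Hochberg adjustment over all miRNAs tested and a threshold of 0.05. None of the 5 members passed the filter on low counts, which kept 47 miRNAs, so 0 of 5 could be called. In that fit edgeR called 0% of the 47 among the 4 groups, 2.13% for SB vs NT, 0% for TGFb vs NT, 2.13% for FGF vs NT, and 0% for TGFb vs SB, FGF vs SB and TGFb vs FGF. The members were therefore taken from the same test with no filter, on all 447 miRNAs, where 0 of 5 passed in any comparison. The background there was 0.224% among the 4 groups and for FGF vs NT, and 0% for SB vs NT, TGFb vs NT, TGFb vs SB, FGF vs SB and TGFb vs FGF. The 30 log2 fold changes (5 miRNAs in 6 comparisons) ran from -2.01 to 2.22 with standard errors of 0.96 to 2.04. 0 of 30 had an unadjusted p under 0.05 (lowest 0.0750), the lowest adjusted p was 0.618, and DESeq2 called 0 as well. A fitted fold change of a miRNA at 0 in most libraries depends on the prior count added to it and is no bound.

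For SB vs NT, the smallest p among the members was that of miR-23b-3p, with a log2 fold change of -2.01 (SE 1.32; edgeR adjusted p = 0.618). This was the comparison in which its shares did not overlap, as they did not for 1 of 5 members and for 3.13% of all 447 miRNAs. In the other comparisons 0 of 5 members had groups that did not overlap, against 1.12% of all miRNAs for TGFb vs NT, 4.03% for FGF vs NT, 1.12% for TGFb vs SB, 1.34% for FGF vs SB and 1.57% for TGFb vs FGF. For TGFb vs SB, miR-23b-3p was at 2.22 (SE 1.29; edgeR adjusted p = 0.797), and its TGFb shares of 0 to 0.578% enclosed the SB ones. It was 1.40 without TGFb replicate 4. These contrasts share the SB libraries.

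For TGFb vs NT and FGF vs NT, the smallest p was that of miR-27a-3p (1.96, SE 1.78, edgeR adjusted p = 0.732; and 1.94, SE 2.04, adjusted p = 0.733). It had 1 count in the NT group, so these values say little beyond that count. Both share the NT libraries. For FGF vs SB it was miR-23a-3p (1.51, SE 1.27; edgeR adjusted p = 0.831), with 17 counts in FGF and 7 in SB, and for TGFb vs FGF miR-23b-3p (0.92, SE 1.23; edgeR adjusted p = 0.978). Single libraries moved these values widely. FGF vs SB for miR-23a-3p was 0.71 without FGF replicate 4 and 3.19 without SB replicate 4. TGFb vs FGF for miR-23b-3p was -0.11 without TGFb replicate 4, 0.02 without FGF replicate 4 and 5.79 without FGF replicate 3, which left FGF with no count of it. For miR-27a-3p, TGFb vs NT ran from 1.09 without NT replicate 1 to 3.52 without NT replicate 4, and FGF vs NT from -1.58 without FGF replicate 4 to 3.72 without NT replicate 4. Leaving out FGF replicate 4 left FGF, and leaving out NT replicate 4 left NT, with no count of miR-27a-3p, so these ends are no bounds.

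miR-27b-3p, which had the most counts, was near 0 against NT in each group, with log2 fold changes of 0.16 (SE 1.03) in SB, 0.40 (SE 1.01) in TGFb and 0.26 (SE 1.10) in FGF. All 3 fell below 0 without NT replicate 1 (-0.44, -0.21 and -0.19), and all 3 were below 0 on the authors' adjusted values (-0.51, -0.80 and -0.52). With standard errors near 1, a change of 2-fold in either direction was not detectable at this depth.

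The members' median log2 fold change was -0.13 for SB vs NT, 0.28 for TGFb vs NT, 0.53 for FGF vs NT, 0.35 for TGFb vs SB, 0.66 for FGF vs SB and 0.02 for TGFb vs FGF. Over all 447 miRNAs it was -0.56, -0.13, -1.01, 0, 0 and 0. Over the 47 miRNAs of the filtered fit, which holds no member, it was -0.043, 0.094, -0.001, -0.081, -0.093 and -0.061. How far the members lay from the rest thus depends on which miRNAs are taken as the rest. The scaling matters here: with RLE factors in place of TMM the median of all miRNAs moved by 0.53, 0.12 and 0.43 in the 3 comparisons with NT. The number of the 5 members above 0 went from 2 to 4 for SB vs NT, from 5 to 2 for TGFb vs SB and from 3 to 1 for TGFb vs FGF, and stayed at 5, 4 and 5 for TGFb vs NT, FGF vs NT and FGF vs SB.

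**Figure D4:**
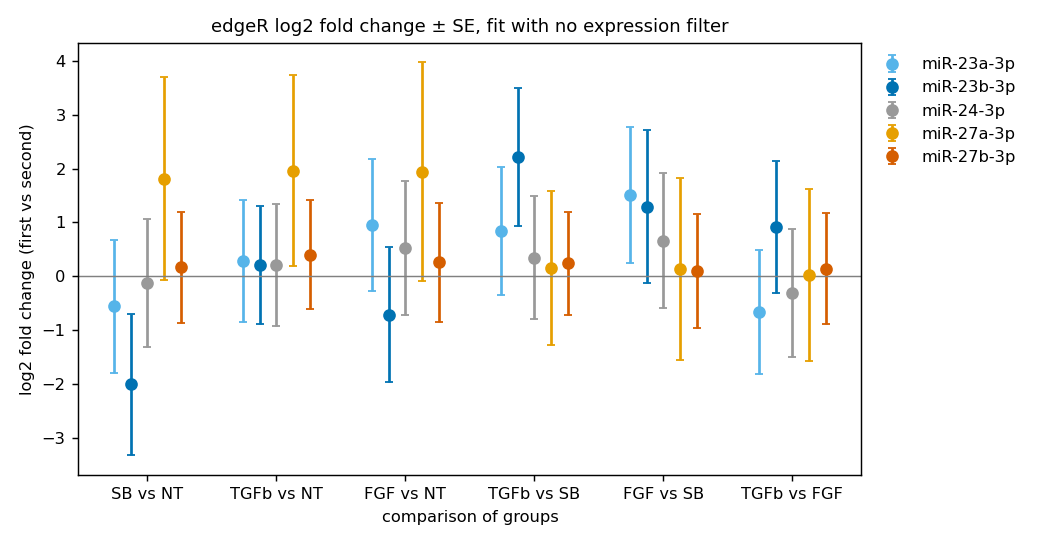
edgeR log2 fold change (y axis) of each of the 5 miRNAs in the 6 comparisons of groups (x axis), from the fit with no filter on low counts; bars are 1 standard error and each colour is 1 miRNA. The values lie between -2.01 and 2.22 and none passed the threshold after adjustment.

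The libraries also differed by replicate number. The summed share of the 5 miRNAs was 0.141% to 0.390% in the 3 libraries numbered 1, 0.750% to 1.45% in the 4 numbered 3 and 1.40% to 2.65% in the 4 numbered 4. In the 3 numbered 2 there were 0 of 525 counts, which allows up to 0.571%. The ranges of numbers 1 and 3 lay apart, and those of 3 and 4 overlapped through FGF replicate 3 alone, which lay above SB replicate 4. On the authors' adjusted values the ranges of numbers 1 (0.133% to 0.761%) and 3 (0.589% to 0.901%) overlapped, through NT replicate 1. Depth moved with the number too: totals were 345 to 14862, 115 to 231, 3241 to 9462 and 868 to 2770 for numbers 1 to 4. The part of depth in this was not tested.

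Within number 3 the summed share was 1.45% in FGF, 0.993% in SB, 0.963% in TGFb and 0.750% in NT. Within number 4 it was 2.65% in FGF, 2.09% in TGFb, 1.58% in NT and 1.40% in SB. Within number 1 it was 0.390% in NT, 0.290% in SB and 0.141% in TGFb. SB and TGFb had 1 and 2 counts there, too few to order. FGF was highest in both numbers in which it had a count, and the order of the other groups differed between numbers 3 and 4. Over all numbers the group means were 1.37% ± 1.33 (FGF, n = 3), 0.908% ± 0.612 (NT, n = 3), 0.799% ± 0.962 (TGFb, n = 4) and 0.671% ± 0.640 (SB, n = 4). FGF has no library numbered 1 and NT has none numbered 2. The group means and pooled shares of the members therefore mix group with replicate number. An edgeR test of the replicate number, added after the pattern was seen, gave miR-27b-3p an unadjusted p of 0.00502 and an adjusted p of 0.204, and the other 4 members an adjusted p of 0.994. It called 0 of 5 members and 0.895% of the 447 miRNAs.

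**Figure D5:**
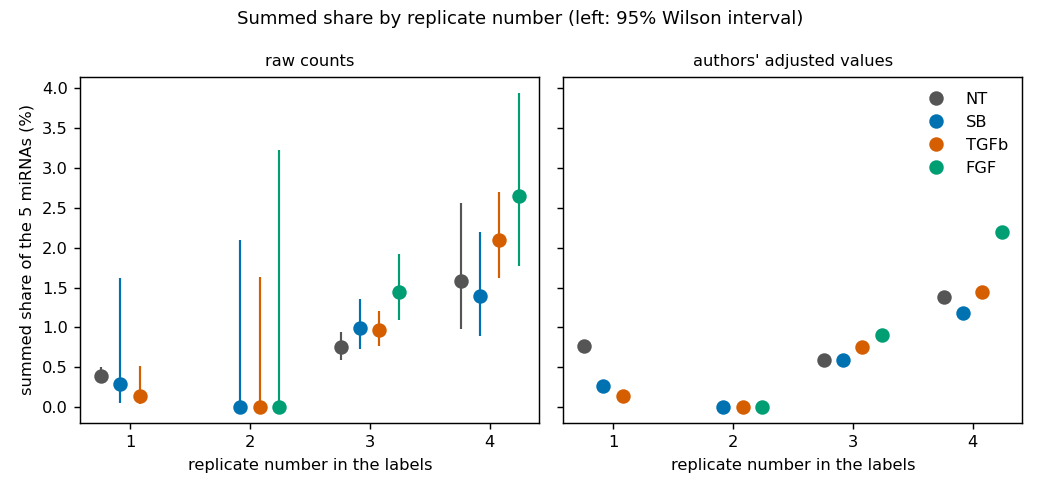
Summed share of the 5 miRNAs (y axis, percent of library counts) by replicate number (x axis), on raw counts with 95% Wilson intervals (left) and on the authors' adjusted values (right); each point is 1 library, coloured by group. On raw counts the libraries numbered 1 lie at 0.141% to 0.390% and those numbered 4 at 1.40% to 2.65%, and on adjusted values NT replicate 1 rises to 0.761%.

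The authors' second table, with values adjusted in a way that no label states, changed 29 of the 44 member values above 0. It raised 4, all in NT replicate 1: miR-23a-3p from 15 to 31, miR-23b-3p from 21 to 34, miR-24-3p from 14 to 24 and miR-27b-3p from 8 to 25. It lowered 25, among them miR-27b-3p from 27 to 13 in TGFb replicate 3 and from 25 to 11 in SB replicate 3. miR-27a-3p was the same in both tables in every library. The summed share in NT replicate 1 went from 0.390% to 0.761%, and that library's miR-27b-3p fraction of the 5 from 13.8% to 21.9%. On the adjusted values, as on the raw counts, miR-27b-3p was above miR-27a-3p and the difference passed the exact permutation test.

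Among the 47 miRNAs that passed the filter, those whose level followed the summed members most closely over the 14 libraries were miR-26a-5p (Spearman's rho 0.83 on log2 CPM), miR-181a-5p (0.75), miR-183-5p (0.67), miR-103a-3p (0.67) and miR-16-5p (0.66). The median over the 47 was 0.27, and all points share the libraries' depths and replicate numbers. Of 15 miRNAs known from TGF-β signalling and the epithelial-mesenchymal transition, 3 passed the filter and edgeR called 0 up and 0 down in each of the 6 comparisons. The most abundant were miR-21-5p, with 518 counts in 14 libraries, and miR-143-3p, with 161 in 13. Of 8 miRNAs known from blood vessel growth, 2 passed the filter and edgeR called 0 in either direction, and miR-221-3p led with 215 counts. Over all 47 miRNAs edgeR called 0% to 2.13% by comparison, so 0 calls among 3 or 2 miRNAs say little about either list.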

How the data were processed

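Small RNA of EVs was sequenced in 14 libraries. The labels' protocols name a PEG-based kit (miRCURY) for the EVs, the miRNeasy Micro kit for their RNA and the QIAseq miRNA kit for the libraries. The submitters' processing notes name the build GRCh38. The aligner, the miRNA annotation and the use of molecular identifiers are not given in the sources used here. The authors deposited raw counts per miRNA and library. Their deposited adjusted values are whole numbers treated here as a score, and their deposited CPM, of which 14 columns of single libraries and the group means were not used, scales those. In the adjusted table, 2 closing lines without a miRNA name were left out.

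Shares are counts over the library's total, with 95% Wilson intervals. Intervals and limits (3 counts for a 0) cover counting error only. Shares of different miRNAs are shares of sequenced counts, not calibrated amounts. Libraries were grouped by the labels, which do not say whether replicates were separate cultures, so p-values measure the spread between these libraries. The 18 pairs of replicates differed beyond counting noise (resampled chi-square, 2000 resamples, p = 0.0005 each, the smallest possible), so none were merged.

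Groups were compared with edgeR 4.0.16 in R 4.3.3, with all 14 libraries in 1 fit. It used TMM, glmQLFit with robust estimation, glmQLFTest and filterByExpr with a minimum count of 10. Fold changes used edgeR's default prior count, and a prior count of 2 was used only for log2 CPM values. Since that filter kept no member, fold changes are from the fit with no filter. Standard errors are the unshrunken log2 fold change over the square root of F. The sign-flip test used Python 3.11.15 and scipy 1.17.1. Both were tested on simulated data. Alternatives used RLE factors, library size, DESeq2 1.42.0, limma 3.58.1 on adjusted values, and other filters. They also used the replicate block, the 2 groups alone, libraries of at least 500 counts, and each library left out. For limma, log2 CPM was taken with a prior count of 2, which is on the count scale and scaled to library size. The text names the 5 members, other products of their loci with a count, the 5 miRNAs most like their sum, and members of 6 fixed lists. The fold changes described one by one are the smallest p in each comparison and miR-27b-3p against NT, picked after the fits. The members and lists were chosen with earlier results of these data known.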

Additional observations from a re-analysis of the deposited data

Results flagged for a closer look

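The share of miR-23a-3p in SB replicate 4 was 0.389%, against 0, 0 and 0.0523% in the other 3 SB libraries. The gap to the nearest was 0.866 of the group's range. The share rests on 5 of 1286 counts. The 0 counts in SB replicates 1 and 2 allow up to 0.870% and 1.68%, above that share. The Wilson intervals of SB replicates 3 and 4 overlapped (0.0143% to 0.190% and 0.166% to 0.907%). SB replicate 4 was thus not shown to differ from the other 3 beyond counting error. In all, 10 sets of 4 libraries were examined in this way. About 0.5 such cases would come by chance if the sets were independent and without ties. These sets share libraries and most hold tied shares of 0, so that rate is no measure of chance here.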

How the results depend on the processing

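No member passed the threshold in any comparison under the 16 alternatives for the 4 groups, the 18 for each pair of groups or the 28 fits per comparison that left out 1 library, although in many of these fits the filter left no member to test. The lowest adjusted p of any member was 0.283. Over all miRNAs the number called by setting ran from 0 to 9 (4 groups; main 0), 0 to 9 (SB vs NT; 1), 0 to 1 (TGFb vs NT; 0), 0 to 10 (FGF vs NT; 1), 0 to 3 (TGFb vs SB; 0), 0 to 2 (FGF vs SB; 0) and 0 to 3 (TGFb vs FGF; 0). The values of 9 and 10 came without NT replicate 4. Of the 30 fold changes of members, 8 kept their sign in the 9 other settings with no filter and with each library left out. miR-27b-3p turned negative on the authors' adjusted values in limma for SB, TGFb and FGF vs NT (-0.51, -0.80 and -0.52), and without the libraries numbered 1, an alternative chosen after seeing the data, for SB and FGF (-0.25 and -0.18). Leaving out 1 library, it ran from -0.66 (without SB replicate 3) to 0.75, from -0.22 (without TGFb replicate 4) to 0.89, and from -0.19 (without NT replicate 1) to 1.06, and FGF vs NT was also negative without FGF replicate 3 (-0.075). Without NT replicate 1 the values for SB and TGFb were -0.44 and -0.21. miR-23b-3p in TGFb vs FGF fell to -0.11 without TGFb replicate 4, and miR-27a-3p in FGF vs NT to -1.58 without FGF replicate 4. The cause was not tested.

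For the pairs of members, the log2 ratio of counts plus 0.5 turned miR-23a-3p minus miR-24-3p to -0.030 and took miR-23a-3p minus miR-27b-3p past the threshold (-0.83; exact permutation adjusted p = 0.0254). The adjusted values took miR-23b-3p minus miR-27b-3p (-0.0997) and miR-27b-3p minus miR-24-3p (0.0580) back over it. With 1 library left out, miR-23a-3p minus miR-23b-3p ran from -0.00786 to 0.0913, miR-23b-3p minus miR-24-3p from -0.0655 to 0.00985, miR-23a-3p minus miR-27b-3p from -0.216 to -0.143 and miR-23b-3p minus miR-27a-3p from 0.0563 to 0.113. miR-27a-3p minus miR-27b-3p, miR-23a-3p minus miR-27a-3p and miR-27a-3p minus miR-24-3p passed in each of these.

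Libraries with the same replicate number deviated together in 15 of 18 pairs (correlation above 0.1; mean 0.307, 0.00574 to 0.628). Pairing would have needed all 18 above 0.1, so the fit without the number was kept, although most pairs shared some deviation. With the replicate block 0 members were called, and miR-23b-3p in TGFb vs SB was at 2.55 (2.22 without it; edgeR adjusted p = 1). For FGF vs NT the block moved miR-23a-3p from 0.95 to 0.52 and miR-24-3p from 0.53 to 0.08. There miR-27a-3p went from 1.94 to 0.92, miR-27b-3p from 0.26 to 0.06 and miR-23b-3p from -0.72 to -0.99. Signs changed for miR-24-3p in TGFb vs NT (0.22 to -0.03). They also changed in FGF vs SB for miR-27a-3p (0.13 to -0.51) and miR-27b-3p (0.10 to -0.23). Depth limits the shares: 4 of 14 libraries held fewer than 500 counts. Without those 4, no member was called either.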
